A study of Oryza brachyantha and Oryza sativa Japonica Group and Oryza glaberrima with 38 samples.

Results

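Of 33412 intervals of histone H3 dimethylated at lysine 27 (H3K27me2) on chromosomes 1 to 12 of the wild rice Oryza brachyantha, 10393 carried H3K27me2 alone, which is 31.1% (95% exact binomial interval 30.6 to 31.6%). They were chosen by their peak calls: each is an interval of the tillering H3K27me2 list that shared no bp with 7 other tillering lists. Of these, 5 are grouped here as active marks (H3K4me2, H3K4me3 in batches 1 and 2, H3K9Ac and H3K56Ac). The other 2 are H3K9me2 in batches 1 and 2. The name active mark is a label for the group, above all for H3K4me2, and no expression of genes was measured here. The absence of those marks is therefore the selection and not a finding, and "alone" means without a called peak of these lists.

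The chromatin immunoprecipitation sequencing (ChIP-seq) series covers 38 samples of 6 grasses and compares heterochromatin between related genomes, per its title. All libraries used here came from greenhouse-grown O. brachyantha with no treatment or mutation named in the labels. The tillering libraries were made from 8 g of aerial tissue of 60-day plants and the seedling libraries from 4 g of aerial tissue of 2-week plants. At tillering, H3K4me3 and H3K9me2 had 2 libraries each (batches 1 and 2), whereas H3K27me2, H3K4me2 and H3K9Ac had 1 library in batch 1 and H3K56Ac had 1 in batch 2. The seedling marks H3K27me (the label gives no number of methyl groups), H3K9me2 and H3K4me3 had 1 library each, and the titles name a single input for all 3. By the titles the control was input for H3K27me2 and histone H3 for H3K4me2 and for H3K4me3 of batch 1. An H3K36me3 library was not analysed here. With 1 H3K27me2 library and members chosen by its peaks, no comparison below has a test, and the intervals given cover counting error only. Aerial tissue holds many cell types, so a mark in few cells and a weak mark in all cells cannot be told apart.

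Methyl groups on lysine 27 of histone H3 are placed in plants, as in animals, by the Polycomb repressive complex that holds developmental genes silent, and the dimethyl form is the step before the trimethyl form. The monomethyl form is placed in Arabidopsis by other enzymes and lies in constitutive heterochromatin. H3K9me2 marks silent transposons and repeats and is kept up together with DNA methylation. H3K4me2, H3K4me3 and acetylated lysines 9 and 56 lie on genes, mostly toward the start of transcribed ones for H3K4me3 and the acetylated forms.

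The H3K27me2-alone regions were narrow and had low peak scores. Their median width was 220 bp (95% interval of the median 218 to 222 bp), with the middle 50% between 170 and 308 bp and a range of 144 to 2482 bp. The 16753 H3K27me2 intervals that shared bp with an active mark and none with H3K9me2 had a median of 499 bp, and the 6266 that shared bp with H3K9me2 had 263 bp. Widths of at least 1 kb were found in 77 alone regions (0.741%), against 19.7% of the intervals with active marks. The alone regions thus held 31.1% of the intervals but 17.4% of the H3K27me2 bp (2814413 bp). Width bears on the rule, since a wider interval has more bp that could be shared with another list, and the part of this in the width difference was not tested.

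The score of a peak is the authors' own. The median −log10 q was 4.15 in the alone regions, against 9.47 in the intervals with active marks and 4.50 in those with H3K9me2. The lowest −log10 q in the whole H3K27me2 list was 1.31. The median fold enrichment over the control was 2.61 in the alone regions, 3.36 in the intervals with active marks and 2.61 in those with H3K9me2. The alone regions were thus close in score to the intervals inside H3K9me2 and below those on active marks. When the H3K27me2 list was cut to the 25% of intervals of highest −log10 q, 310 alone regions were left, which is 3.71% of that list, and with the top 50% there were 2629 (15.7%). Most alone regions were thus among the 50% of intervals with the lower scores.

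**Figure D1:**
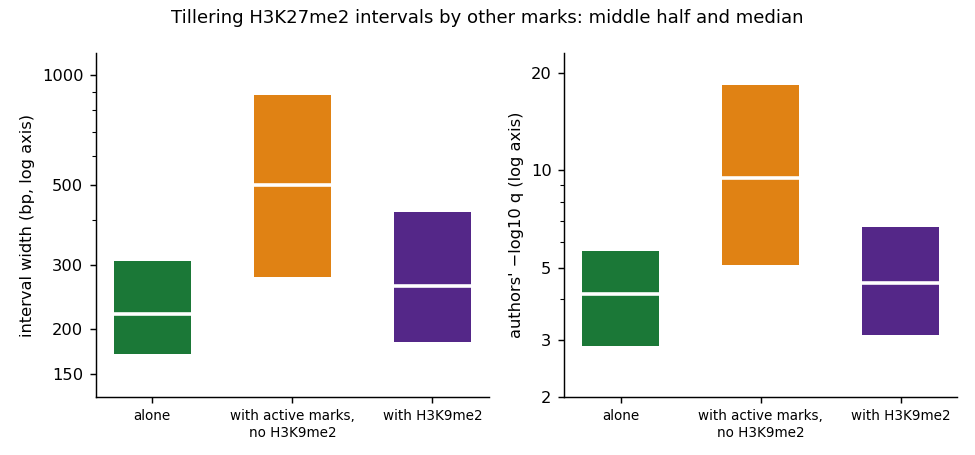
Width (left, bp, log axis) and the authors' −log10 q (right, log axis) of tillering H3K27me2 intervals alone, with active marks and no H3K9me2, and with H3K9me2; bars span the middle 50% of intervals and white lines are medians. The alone regions have the lowest medians in both panels, 220 bp and 4.15.

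The strongest alone regions were far above the typical one. By −log10 q the first was chr1:10493194-10493804 (RS2 assembly), with a −log10 q of 23.7 and a fold of 5.71, on the gene LOC107303522. Next came chr5:19726-20051, with a −log10 q of 23.7, which lay 15959 bp from the nearest protein-coding gene and 58 bp from an active-mark interval. The others of the first 5 were chr6:4639188-4639392, chr7:11449500-11450116 and chr10:2772328-2772593, with a −log10 q of 22.1, 21.7 and 21.6. Seedling H3K27me covered 204 bp of the region on chromosome 7 and 136 bp of that on chromosome 10, and 0 bp of the other 3. None of the 5 was touched by seedling H3K9me2 or H3K4me3.

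Wider regions touch a gene more easily, and the 5 widest alone regions all lay on protein-coding genes. They were chr2:2791851-2794332 (2482 bp, on LOC102706353), chr5:11557503-11559919 (2417 bp, on LOC102710123), chr1:30748914-30751245 (2332 bp, on LOC102700101 and LOC102706253), chr4:14206461-14208786 (2326 bp, on LOC102708240) and chr3:12218393-12220707 (2315 bp, on LOC102721059). Seedling H3K27me shared 0 bp with all 5, and seedling H3K4me3 shared 161 bp with the one on LOC102721059. The gene table used here gives no product for these genes, so no role is stated for them.

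Alone regions lay nearer to active marks than to H3K9me2. The median distance to the nearest interval of any active mark was 1801 bp (95% interval 1749 to 1854 bp, middle 50% 774 to 3977 bp). Within 1 kb of an active mark lay 31.5% of the regions, within 5 kb 81.5% and within 10 kb 94.9%, which left 531 regions (5.11%) farther away. The median distance to the nearest H3K9me2 interval of either batch was 17975 bp (95% interval 17436 to 18734 bp, middle 50% 5743 to 49059 bp). Within 1 kb of H3K9me2 lay 763 regions (7.34%), and 35.9% lay within 10 kb. An active mark was nearer than H3K9me2 for 8792 regions (84.6%). The active lists together hold more intervals than the H3K9me2 lists (24282 to 41187 each, against 6270 and 7081), and the part of this in the distances was not tested. Of the 182.8 Mb outside the 7 lists, 11.4 Mb lay within 1 kb of H3K9me2 and 25.8 Mb beyond 100 kb. These held 66.8 and 42.3 alone regions per Mb. No such level was computed for active marks, so the contrast is not read as a trait of the alone regions. With the other lists cut to their top 50% of peaks by −log10 q, the median distance to H3K9me2 was 39517 bp.

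Among the active marks H3K4me2 was the nearest. It was the nearest one for 7595 regions (73.1%), against 8.79% for H3K56Ac, 8.26% for H3K9Ac, 5.11% for H3K4me3 of batch 1 and 4.34% for H3K4me3 of batch 2, with 44 ties. Median distances were 2026 bp to H3K4me2, 3612 bp to H3K56Ac, 3793 and 3930 bp to H3K4me3 of batches 2 and 1, and 4704 bp to H3K9Ac. H3K4me2 also had the most intervals of the 5 lists (41187) and covered the most sequence, 12.8% of the chromosomes. For H3K9me2 the batches differed, with median distances of 32424 bp in batch 1 and 19578 bp in batch 2, whereas the H3K4me3 batches were close to each other.

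**Figure D2:**
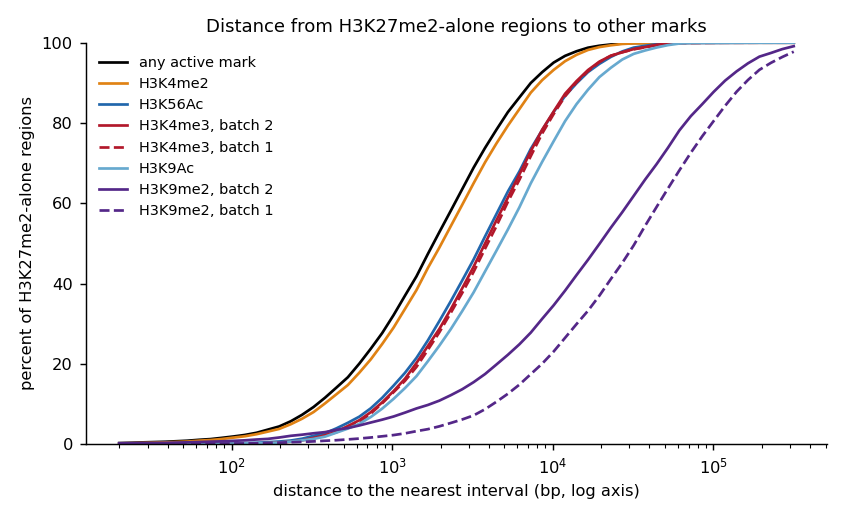
Percent of the 10393 H3K27me2-alone regions (y axis) that have an interval of each tillering mark within the distance on the x axis (bp, log axis). The curve of any active mark reaches 31.5% at 1 kb and 94.9% at 10 kb. That of H3K9me2 reaches 2.21% and 22.9% in batch 1, and 6.80% and 34.3% in batch 2.

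At the edge of the rule the regions were separated from the excluded intervals by a few bp. Just inside were chr9:10024741-10025041 and chr5:2715219-2715382, which lay 2 and 3 bp from an active-mark interval, and chr2:14779561-14779778, 4 bp from H3K9me2. Just outside were chr2:12812142-12812795 and chr3:26717149-26717313, which each shared 1 bp with H3K9me2 of batch 2, and chr4:13390199-13390449, which shared 2 bp with H3K9Ac. In all, 26 alone regions lay within 10 bp of the 7 lists, and 21 excluded intervals shared 10 bp or fewer. At the other end, 1221 regions (11.7%) lay more than 5 kb from every interval of the 7 lists. The farthest was chr4:2748201-2748382, at 34664 bp, and seedling H3K9me2 covered all its 182 bp. The next 4, chr10:10888896-10889064, chr4:2706861-2707200, chr10:10897979-10898295 and chr10:10887501-10887883, lay 26462 to 27857 bp away and were touched by none of the seedling lists.

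Seedling H3K27me lay on 1436 of the alone regions, which is 13.8% (95% interval 13.2 to 14.5%), and on 10.7% of their bp. Over all tillering H3K27me2 intervals 21.1% were touched. The alone regions stood between the other classes: 2.04% of the intervals with active marks (95% interval 1.83 to 2.26%) and 84.2% of those with H3K9me2 (95% interval 83.3 to 85.1%) were touched. Of the touched alone regions 649 (45.2%) lay wholly inside seedling H3K27me, and 1098 of all alone regions (10.6%) were covered over at least 50% of their width. The value depended on the batch 2 lists of H3K4me3 and H3K9me2: without them 11906 regions met the rule and 22.0% of these were touched, and without the batch 1 lists of the same marks the share was 14.1%. It was 6.45% with the top 50% of seedling H3K27me peaks.

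The seedling H3K9me2 and H3K4me3 lists touched fewer alone regions. Seedling H3K9me2 touched 782 (7.52%, 95% interval 7.02 to 8.05%), against 0.669% of the intervals with active marks, 94.2% of those with H3K9me2 and 20.3% of all. Seedling H3K4me3 touched 44 (0.423%), against 73.1% of the intervals with active marks, 1.64% of those with H3K9me2 and 37.1% of all. The classes were split on the tillering lists of these same marks, so these values are tied to the rule. None of the 3 seedling lists touched 8620 regions (82.9%). Seedling H3K27me without H3K9me2 was found on 949 regions (66.1% of those it touched), both on 487 (33.9%), and seedling H3K9me2 without H3K27me on 295. With seedling H3K9me2 added to the lists that exclude, 9611 regions were left and H3K27me touched 9.87% of them.

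**Figure D3:**
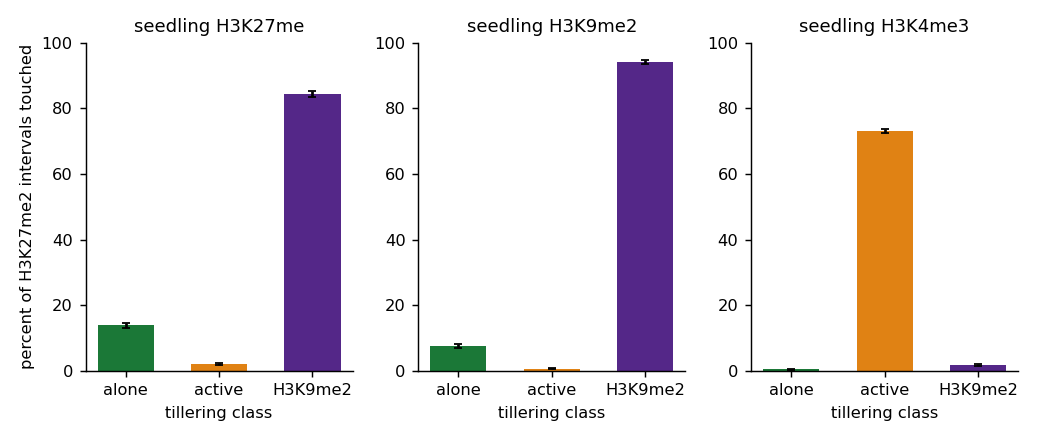
Percent of tillering H3K27me2 intervals (y axis) touched by seedling H3K27me, H3K9me2 and H3K4me3 (left to right), for intervals alone, with active marks and no H3K9me2, and with H3K9me2; error bars are 95% exact binomial intervals. The alone regions lie at 13.8%, 7.52% and 0.423%.

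Read from the seedling side, H3K27me2-alone regions were a small part of the seedling H3K27me list. Of its 15373 intervals 1306 (8.50%) touched an alone region, and 26.7% touched any tillering H3K27me2 interval. The alone regions held 0.749% of its bp. The 5 alone regions with most seedling H3K27me were chr2:12282938-12284320 (1104 bp, 79.8% of the region, on LOC102707096), chr4:1523978-1525186 (947 bp), chr4:6428043-6429360 (904 bp), chr6:15495584-15496614 (883 bp, on LOC102699875) and chr4:5334180-5335058 (846 bp). Seedling H3K9me2 lay on 2 of these 5 as well, with 995 bp on chr4:6428043-6429360 and 781 bp on chr4:5334180-5335058.

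Sequence outside the 7 excluding lists gives the level to set this against. Such free sequence made up 70.6% of the chromosomes (182.8 Mb of 258.9 Mb), in 54012 gaps with a median of 2191 bp, and the alone regions took up 1.54% of it and lay in 6455 of the gaps. Seedling H3K27me held 10.7% of the bp of alone regions and 6.37% of free sequence, and the alone regions had the higher share on 12 of 12 chromosomes. For seedling H3K9me2 the shares were 6.23% of alone bp and 2.35% of free sequence, and for seedling H3K4me3 0.227% and 0.443%. With the bp inside seedling H3K9me2 left out of both, seedling H3K27me held 8.16% of alone bp and 4.75% of free bp. Free sequence may include stretches where no peak can be called, such as assembly gaps, and the part of this in these differences was not tested.

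The seedling H3K27me share went down with distance from tillering H3K9me2. It touched 48.4% of the 763 alone regions within 1 kb of H3K9me2 (95% interval 44.8 to 52.0%), 26.3% at 1 to 2 kb, 17.1% at 2 to 5 kb, 12.1% at 5 to 10 kb and 9.56% at 20 to 50 kb. It touched 208 of 1734 regions at 10 to 20 kb, 88 of 1467 at 50 to 100 kb and 5.59% of the 1092 farther away (95% interval 4.30 to 7.12%). Among the intervals with active marks the share went down as well, with 33 of 329 touched within 1 kb and 0.809% beyond 100 kb, and was below that of the alone regions in each of these distance classes. Seedling H3K9me2 moved with it, touching 40.5% of the alone regions within 1 kb and 1.83% of those beyond 100 kb. In bp, the alone regions within 1 kb of H3K9me2 had less seedling H3K27me than the free sequence there, 35.8% against 44.8%. Regions were placed in a distance class by their nearest end, with all their bp, and free sequence bp by bp. The part of this unlike placing in the differences was not tested. From 1 to 2 kb onward the alone regions had more, with 20.7% against 17.8% at 1 to 2 kb, 13.8% against 7.46% at 2 to 5 kb, and 5.22% against 1.21% beyond 100 kb.

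**Figure D4:**
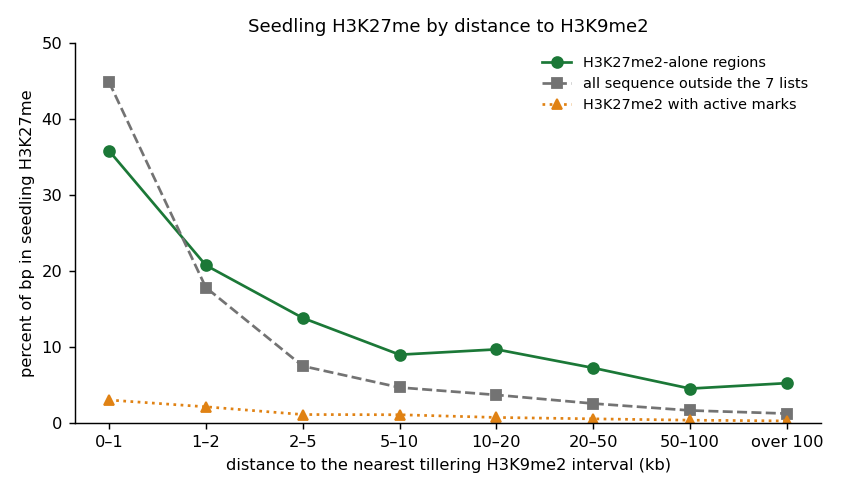
Percent of bp inside seedling H3K27me (y axis) by distance to the nearest tillering H3K9me2 interval (x axis, kb), for H3K27me2-alone regions, all sequence outside the 7 lists, and H3K27me2 intervals with active marks. The alone regions lie below free sequence within 1 kb (35.8% and 44.8%) and above it in the 7 classes beyond, with 5.22% and 1.21% in the farthest. H3K27me2 intervals are placed by their nearest end and free sequence bp by bp.

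Width, score and distance from active marks were not the same in the touched and other regions. Seedling H3K27me touched 10.8% of the alone regions in the narrowest width class (median 157 bp), 17.3% of those of 300 to 500 bp and 20.0% of those of 500 to 1000 bp, but 10 of 77 of the wider ones (95% interval 6.41 to 22.6%). In the intervals with active marks the share was 2.15%, 2.47%, 2.15% and 1.49% in the same width classes, so at matched width the alone regions had the higher share. By distance from an active mark, 6.02% of alone regions were touched within 500 bp, 9.64% at 500 to 1000 bp, 15.0% at 1 to 2 kb, 16.3% at 2 to 5 kb, 18.3% at 5 to 10 kb and 20.3% farther away. By score the share varied less, between 11.5% at a −log10 q of 2 to 3 and 18.4% above 10.

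The alone regions were spread over all 12 chromosomes. Their density was lowest on chromosome 3, with 30.1 per Mb, and highest on chromosome 11, with 47.8 per Mb, and they made up 27.6% of the H3K27me2 intervals of chromosome 3 and 35.3% of those of chromosome 11. The share touched by seedling H3K27me was 10.7% on chromosome 3 and 19.7% on chromosome 12, the lowest and the highest. It was above that of the intervals with active marks on 12 of 12 chromosomes, a count that is tied to the split of the classes as well.

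Alone regions were sparser in the H3K9me2-rich blocks than in the arms on 11 of 12 chromosomes. The block is the stretch richest in H3K9me2, located by a step function fitted along the chromosome over windows of 100 kb. The blocks made up 13.8% of the sequence (35.7 Mb) and held 670 alone regions (6.45%), or 18.8 per Mb, against 9723 regions and 43.6 per Mb in the arms. Chromosome 7 was the exception, with 46.3 per Mb in its block and 40.1 per Mb in its arms. H3K9me2 peaks exclude, and 13.8 Mb of the block sequence lay outside the 7 lists. Per Mb of free sequence the densities were 48.5 in blocks and 57.5 in arms, and the block was lower on 10 of 12 chromosomes. The exceptions were chromosome 7, with 92.4 in the block and 52.9 in the arms, and chromosome 2, with 63.6 and 48.7. Chromosome 9 had the lowest block density, 18.5 against 59.4 in its arms. By distance the contrast ran the other way. Over blocks and arms together, free sequence held 66.8 alone regions per Mb within 1 kb of H3K9me2 and 42.3 beyond 100 kb. The lower density in blocks is therefore not read as a scarcity of alone regions near H3K9me2. Of the alone regions in blocks 33.7% were touched by seedling H3K27me (226 regions, 95% interval 30.2 to 37.5%), against 12.4% in arms (1210 regions, 95% interval 11.8 to 13.1%). Seedling H3K9me2 touched 23.3% in blocks and 6.44% in arms. The median distance to tillering H3K9me2 was 2904.5 bp in blocks and 20406 bp in arms. The part of this distance in both differences was not tested. No level of free sequence was computed for blocks and arms. Median widths were 221 bp in blocks and 220 bp in arms.

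**Figure D5:**
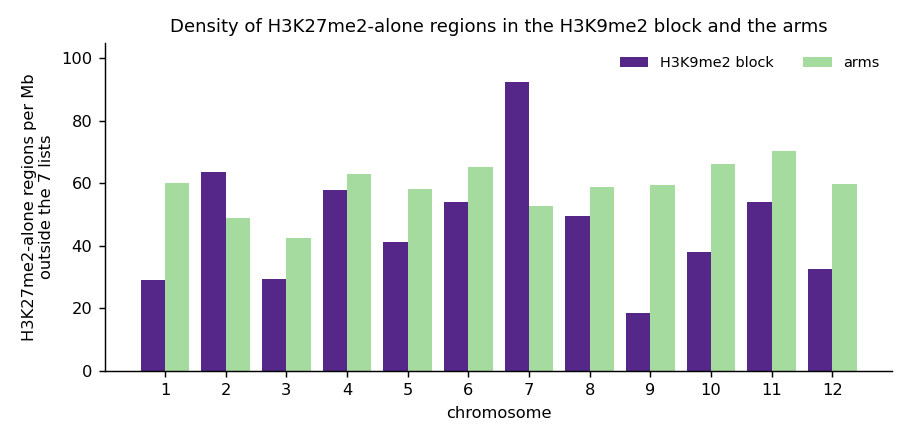
H3K27me2-alone regions per Mb of sequence outside the 7 lists (y axis) in the H3K9me2 block and in the arms of chromosomes 1 to 12 (x axis). The block is the lower bar on 10 chromosomes and the higher one on chromosomes 2 and 7.

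The nearest other H3K27me2 interval lay at a median of 968 bp (middle 50% 399 to 2376 bp), against 931 bp for the other H3K27me2 intervals, and 51.0% and 51.6% had one within 1 kb. That neighbour was itself an alone region for 51.0% of the alone regions, against 22.5% of the other intervals. Every H3K27me2 interval that lies wholly in the same gap between the 7 lists is alone by the rule, so this difference follows at least in part from the selection and nothing is read from it. When alone regions up to 1 kb apart were joined into runs there were 8508 runs, of which 7081 were single regions (68.1% of the regions), 1103 were pairs, 237 held 3 regions, 55 held 4 and 32 held 5 or more. The longest run, chr1:8130196-8136945, held 10 regions of 166 to 621 bp over 6750 bp. It lay over LOC102712953, was 931 bp from the nearest active mark and 22609 bp from the nearest H3K9me2, and had seedling H3K27me on 3 and seedling H3K9me2 on 6 of its regions. Runs of 7 lay at chr1:16038240-16044648 on LOC102702328 and at chr5:847841-852973 on LOC102719771, with none of their regions touched by seedling H3K27me or H3K9me2.

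Most alone regions lay outside genes. A protein-coding gene was touched by 2366 of them (22.8%, 95% interval 22.0 to 23.6%), against 74.5% of the intervals with active marks, 814 of the 6266 with H3K9me2 and 46.9% of all. Another 13.3% lay within 1 kb of a gene, 36.4% at 1 to 5 kb and 2863 (27.5%) over 5 kb away. Among all H3K27me2 intervals these shares were 7.37%, 22.3% and 23.5%. A gene of any type was absent under 72.4% of the alone regions, against 48.3% of all intervals. This share was 19.9% in the intervals with active marks and 84.1% in those with H3K9me2. Protein-coding genes held 23.7% of the alone bp and 30.6% of free sequence, so the alone regions had less gene sequence than the space open to them. Of the 77 regions at least 1 kb wide 39 touched a protein-coding gene. Wider regions touch a gene more easily and no share at matched width was computed, so nothing is read from this count. Seedling H3K27me touched 7.19% of the alone regions on protein-coding genes, 14.5% of those within 5 kb of one and 18.0% of those farther away. The median distance to an active mark was 1103, 1584.5 and 4745 bp in the same order.

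The alone regions touched 1663 of 23230 protein-coding genes (7.16%), and these were long, with a median of 4843 bp against 3209 bp over all. Tillering H3K4me3 lay on 76.2% of the touched genes, against 86.2% of all protein-coding genes, and any active mark on 91.6%, against 95.5%. Seedling H3K27me lay on 21.4% of the touched genes, against 7.81% of all, and tillering H3K9me2 on 8.06%, against 3.93%. Long genes have more bp that can be touched by any list, so genes were also set side by side within length classes. H3K4me3 and the other active marks also exclude under the rule, so genes touched by alone regions were chosen partly for stretches without them, and their shares of these marks are a description tied to the rule. At 4 to 8 kb, seedling H3K27me lay on 19.5% of 687 touched and 7.70% of 6013 untouched genes, and H3K4me3 on 84.6% and 93.8%. Above 8 kb, seedling H3K27me lay on 48.6% of 354 touched and 19.8% of 1538 untouched genes, and H3K4me3 on 80.2% and 94.5%. At 1 to 2 kb, seedling H3K27me lay on 5.26% of 114 touched genes (6 genes) and 4.90% of 4469 untouched genes, and H3K4me3 on 40.4% and 80.7%. Up to 1 kb, seedling H3K27me lay on 3 of 34 touched genes and 5.06% of 1878 untouched genes, and H3K4me3 on 1 of 34 and 65.5%. At 2 to 4 kb, seedling H3K27me lay on 8.65% and 4.93%, and H3K4me3 on 74.9% and 88.9%.

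The genes with most bp in alone regions were long genes, which follows at least in part from ranking by bp. Active marks elsewhere in the bodies of these genes were about as common as over all genes. The first 20 were 4078 to 23487 bp long and had 1879 to 4573 bp in 2 to 9 alone regions, which is 9.33 to 58.2% of their length. All 20 had H3K4me2, and thus an active mark, against 95.5% with any active mark over all protein-coding genes. Tillering H3K4me3 lay on 18, against 86.2% of all. Of the 20, 18 had seedling H3K4me3, 3 had tillering H3K9me2 and 6 had seedling H3K27me. Over all protein-coding genes these shares were 88.1%, 3.93% and 7.81% in the same order. Over all those above 8 kb they were 92.5%, 19.6% and 25.2%, so nothing is read from the counts in these 20 long genes. The first was LOC102702328 (chr1:16036403-16048510), with 4573 bp in 9 regions (37.8% of its length), 863 bp of H3K4me2 and 0 bp of seedling H3K27me. LOC102699491 (chr3:14916288-14927717) had 3928 bp in 8 regions. LOC102708240 (chr4:14203481-14210676) had 3841 bp and LOC102705569 (chr1:4192837-4200370) had 3822 bp, 53.4% and 50.7% of their lengths. These 4 genes had no H3K9me2 and no seedling H3K27me.

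The rest of the 20 had fewer bp in alone regions, though LOC102723043, with 2375 bp of its 4078 bp, had the highest share of its length (58.2%). By bp they were LOC102719299, LOC102707144, LOC102719771, LOC102721059, LOC102709412, LOC102709529, LOC102723043, LOC102711055, LOC102712195, LOC102710123, LOC102701085, LOC102712482, LOC102706690, LOC102702356, LOC102708539 and LOC102720805. Seedling H3K27me was widest on LOC102709529 (7870 bp, 39.5% of the gene) and LOC102712195 (7200 bp, 30.7%). Both also had tillering H3K9me2, with 613 and 2412 bp (batches 1 and 2) on LOC102709529 and 3956 and 4994 bp on LOC102712195. LOC102711055 had 3230 bp of seedling H3K27me and no H3K9me2. Tillering H3K4me3 was absent from LOC102721059 and LOC102701085.

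Alone regions covered at least 50% of the body of 12 protein-coding genes. Of these, 3 had H3K4me3, namely LOC102705569, LOC102708240 and LOC102723043, and the other 9 had no active mark and no H3K9me2 at tillering. Over all protein-coding genes 86.2% had tillering H3K4me3 and 95.5% an active mark. LOC102716750 (327 bp) lay wholly inside an alone region, and LOC102708000 (582 bp) and LOC102720276 (1425 bp) were covered over 97.8% and 97.5%. Seedling H3K27me touched 1 of the 12, against 7.81% of all protein-coding genes. This was LOC102712953, with all its 1010 bp covered, which lies in the longest run of alone regions. Genes with an active mark over most of their length could not reach this coverage by the rule.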

How the data were processed

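The submitters' processing notes name Bowtie, MACS2 and bedtools as the tools with which the authors made the peak lists; versions, thresholds and the handling of multi-mapped reads are not given in the sources used here. Each deposited list gives a pileup signal and, joined in 1 column, 3 values read from their ranges as −log10 p, fold enrichment and −log10 q. Read depth is unknown, and the median pileup of the H3K27me2 list was 32. The lists did not end at 1 score. On chromosomes 1 to 12 the lowest −log10 q was 1.01 in both tillering H3K9me2 lists, seedling H3K9me2 and seedling H3K27me. It was 1.30 to 1.31 in the other lists. The part of this in the shares touched and the distances was not tested. Coordinates are on the RS2 assembly. They were read as 1-based with both ends included, since 127 summits equal a start and 94 an end. Genes came from the RefSeq table of ObraRS2 (26302 placed genes), which gives neither strand nor product.

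Intervals of a list were merged where they overlapped or touched. Distance is the difference of the nearest ends, with 0 for shared bp. Block limits minimise the squared error of a 3-segment step function over 100 kb windows of H3K9me2 cover. Intervals are 95% exact (Clopper-Pearson) for shares and from binomial order statistics for medians. Python 3.11.15, numpy 2.4.6, pandas 2.3.3 and scipy 1.17.1 were used, and the interval functions and the block fit were tested on simulated data.

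The members, lists and alternatives were chosen with earlier results of these data known. The regions named are the 5 of highest −log10 q, the 5 widest, the 5 with most seedling H3K27me, the 5 farthest from and the 3 nearest to the 7 lists, and 3 just outside; the genes named are the 20 with most bp in alone regions. Genes named for runs or for cover of at least 50% were chosen after their values were seen. Planned descriptions of sequence, motifs and gene classes were not made, as no genome or product names were used here. Alternatives changed peak thresholds, the overlap rule, the lists that exclude and the merging of intervals. The 10 lists of the other species were not used.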

Additional observations from a re-analysis of the deposited data

How the results depend on the processing

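Over 7 results, 81 alternatives were computed, 1 of them (seedling H3K9me2 excluding as well) chosen after seeing the data; for the number of regions, 9 of 11 stayed within 1.5 times the value reported (7961 to 12812 regions). For the other results, 22 stayed within the counting interval and 48 moved beyond it. Counting intervals are narrow at 10393 regions, so small moves count. Leaving out the batch 1 or batch 2 lists of H3K4me3 and H3K9me2 gave 10461 to 11906 regions, 31.3 to 35.6% of the list, median widths of 220 to 224 bp, median distances of 1807 to 2033.5 bp to an active mark and 19384 to 26912.5 bp to H3K9me2, 14.1 to 22.0% touched by seedling H3K27me and 21.2 to 22.7% touching a gene. With batch 1 lists only, these were 36.1% of the list, 224 bp, 2108 bp, 26914.5 bp, 21.9% and 21.3%. With the top 25% of H3K27me2 intervals there were 310 regions, 3.71%, 410.5 bp, 1445.5 bp, 15733 bp, 18.4% and 28.4%. With the top 50% there were 2629 regions, 15.7%, 262 bp, 1650 bp to an active mark, 16.2% and 25.2%. With the top 50% of peaks of the other lists the values were 38.3%, 228 bp, 2524 bp, 39517 bp, 16.9% and 25.6%. Keeping 500 bp from the other marks gave 24.9%, 2252 bp to an active mark, 19485.5 bp to H3K9me2 and 20.4% touching a gene. Excluding only intervals covered over at least 50% gave 33.5%, 226 bp, 1694 bp, 14.7% and 24.1%. Joining H3K27me2 intervals within 500 bp gave 29.7%, 226 bp, 2066 bp, 14.7% and 20.5%. The seedling H3K27me share was 10.6% when at least 50% of a region had to be covered, 6.45% with the top 50% of seedling peaks and 9.87% when seedling H3K9me2 excluded as well. With 1 kb added to both sides of genes 36.1% touched one. Unmerged lines gave the same 10393 regions and the same values, which was fixed in advance since no H3K27me2 intervals overlapped or touched. The counts of alternatives above include this setting, and nothing is read from it. Unplaced sequences gave 10394 regions and moved no other result beyond its interval. The cause was not tested for any of these moves. No paired analysis was possible because no result comes from a test and the H3K27me2 list has 1 library. Without read totals, weak peaks of the excluding lists that were not called cannot be told apart from absent marks.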

Other observations

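Genes that make no protein were touched by alone regions as well. Of 1082 pseudogenes 167 (15.4%) were touched and of 1051 long non-coding RNA genes 151 (14.4%), against 7.16% of protein-coding genes, without matching for length. By H3K27me2 intervals of any class the shares touched were 56.7%, 28.2% and 42.6% in the same order. Of 474 tRNA genes 0 were touched, which allows a share of up to 0.633% at 3 counts of the total (exact 95% upper limit 0.775%), and of 295 snoRNA genes 1 was touched. H3K27me2 intervals of any class touched none of these tRNA genes and 8 of the snoRNA genes, so this is not particular to the alone regions.

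On sequences not placed on chromosomes 1 to 12 there were 44 H3K27me2 intervals on 3 sequences. Of these 1 met the rule, 42 shared bp with H3K9me2 and 3 with an active mark.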
